A study of Schizosaccharomyces pombe with 16 samples.

Results

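The strand opposite to 840 transcription units of fission yeast was examined, each unit being followed by another unit on its own strand. Units were read from the arrays themselves, since no table links probes to genes, and members were chosen by measured values. To count as a unit, 6 or more successive probes of 1 strand had to have a control signal of 236 or more on the linear scale of the scanner (from the mean log2 Cy3 signal of 16 arrays, smoothed by a running median over 5 probes). Odd probe numbers were read upward and even numbers downward. The antisense region of a unit consisted of the probes of the opposite strand inside it and outside any other unit, at least 3 of them. A region was kept where no unit of the opposite strand lay within 8 probe numbers of the 3′ end of its unit and the next unit downstream was on the same strand, which is a tandem arrangement. This left 840 of the 2297 antisense regions of 2540 units in the densely tiled part of the array. Of the other regions, 1069 had a next unit on the opposite strand (convergent), and 388 had a same-strand neighbour but an opposite unit at the 3′ end.

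Cryptic unstable transcripts are non-coding RNAs that the nuclear exosome degrades soon after they are made. Many promoters of yeast fire in both directions, and where genes lie in tandem the divergent product of the downstream promoter runs against the gene upstream of it. Rrp6 is the nuclear exonuclease of the exosome. Mtl1, an RNA helicase, and Red1, a zinc-finger protein, form the core of MTREC, which brings RNA to the exosome. Pab2, a nuclear poly(A)-binding protein, Iss10, Rmn1 and the RNA-binding protein Mmi1, which recognizes meiotic transcripts, associate with that core. Cid14 is the poly(A) polymerase of the TRAMP complex, and Sen1 is a helicase that unwinds hybrids of RNA and DNA.

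RNA of 9 mutants was measured on 16 two-colour tiling arrays, with the cDNA of the mutant in Cy5 and that of its control strain in Cy3. Deletions of rrp6, pab2 and sen1 were each compared with a wild-type strain of their own, and deletions of red1, cid14, iss10 and rmn1 with 1 common wild-type strain. The temperature-sensitive mtl1-17 strain was compared with an mtl1-flag strain, and the mmi1Δ mei4-P572 strain with a strain that carried mei4-P572 alone. Deletion strains grew in YEA at 30 °C, and mtl1-17 cells grew at 23 °C and then for 4 h at 37 °C. There were 2 arrays for 7 mutants, which the series describes as biological replicates, and 1 array for rmn1Δ and for mmi1Δ mei4-P572, which therefore had no replicate check. Cy5 held the mutant on every array, and any bias of a probe towards 1 dye therefore enters each ratio and cancels only between mutants.

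The regions were dim. In the control channel between 14.5% and 60.2% of their 19082 probes were well above background on an array (median 32.9%), and on the sense strand of the same units between 94.3% and 99.4%. The scanner software had set the ratio of between 10.5% and 53.4% of the antisense probes to 0 (median 27.2%). No probe was saturated. As a check of the labels, a run of lost probes was found for 7 of the 9 mutants, with a mean log2 ratio of -5.78 in rmn1Δ, -5.12 in pab2Δ and -4.99 in mmi1Δ mei4-P572 in the dense part, and none of these 3 runs touched a tandem region. In rrp6Δ and mtl1-17 no run of that depth was found, the strongest having means of -2.54 and -2.87.

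The 840 regions were spread over both strands, 441 opposite odd units and 399 opposite even units. A region held a median of 19 probes (range 4 to 177), and the median unit was 1600 bp long at the spacing of 40 bp per probe number. The gap to the start of the downstream unit had a median of 480 bp (range 160 to 11600). The mean antisense control signal of a region had a median of 5.63 on the log2 scale, against 10.1 for the sense strand of the same unit. Across the 840 regions both signals had a Pearson correlation of 0.028, a description over regions that share the same arrays. These signals chose the regions and carry no test. Among the members 43 units had exactly 6 probes, and 188 runs of exactly 5 probes were left out. The nearest opposite unit was 9 or 10 numbers away for 15 members and 7 or 8 for 12 units left out. In 9 regions the mean control signal of the antisense strand was itself above the unit threshold. Among them were the regions opposite units 39381-39391, 756-766 and 116277-116309, named below, at 8.64, 8.29 and 8.09 on the log2 scale.

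Ratios are log2 of mutant over control, averaged over the probes of a region, after the mean of all sense units was set to 0 on each array. The mean ratio over the 840 regions was highest in rrp6Δ, with 0.26 on array 1 and 0.43 on array 2. It was 0.04 and 0.14 in red1Δ and 0.08 and 0.02 in mtl1-17. It was -0.08 and -0.06 in pab2Δ. After this centring both arrays of rrp6Δ lay above all other arrays, and both arrays of pab2Δ lay below 0. Without centring the mean over both arrays was 0.10 in rrp6Δ, 0.08 in red1Δ and -0.02 in pab2Δ. With normexp background correction and loess it was 0.14, -0.03 and -0.10. The order of the single arrays is thus given for the centred ratios only. In cid14Δ the arrays fell on either side of 0, with 0.04 and -0.13. The means were -0.13 and -0.06 in iss10Δ, 0.11 and 0.04 in sen1Δ, 0.05 in rmn1Δ and 0.08 in mmi1Δ mei4-P572. The median region was lower than the mean in rrp6Δ (0.22), red1Δ (-0.06) and pab2Δ (-0.18). In red1Δ the mean and the median thus had opposite signs, and the ratio of 1 in 10 regions was 0.88 or more. Probes that the scanner software had set to 0 stayed in these averages and were shifted by the centring. The sense mean subtracted was -0.20 and -0.28 on the arrays of rrp6Δ. Without centring the median region of rrp6Δ was -0.02. With probes at 0 left out, the centred mean of rrp6Δ was 0.31 over 741 regions.

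**Figure D1:**
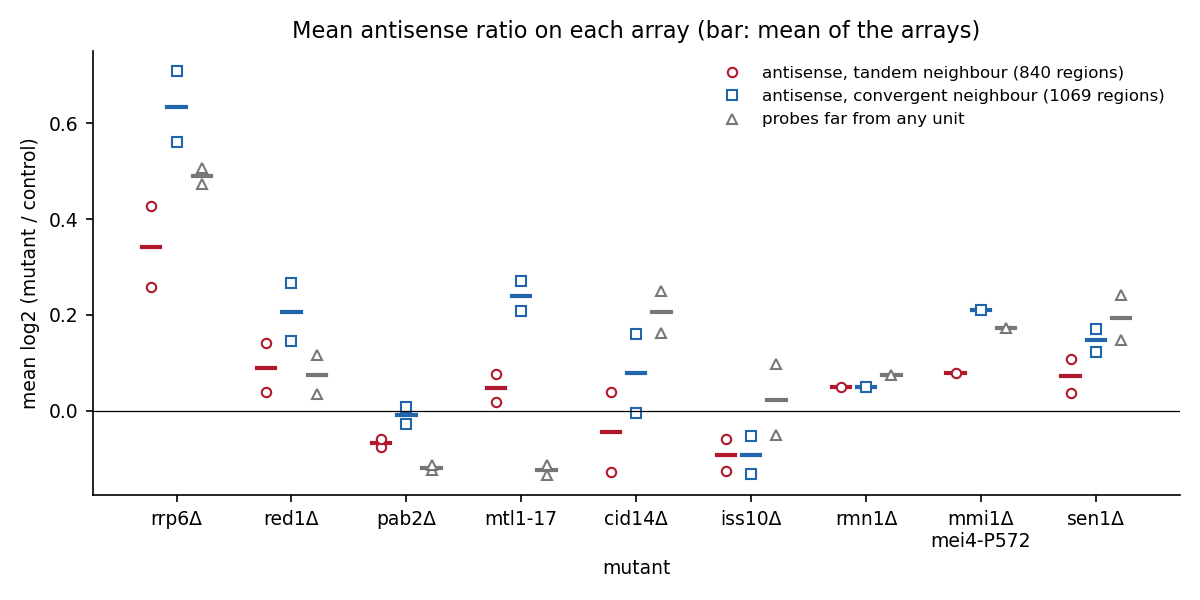
Mean log2 ratio of mutant over control (y axis) on each array, by mutant (x axis), for the 840 tandem regions (circles), the 1069 convergent regions (squares) and probes more than 1000 bp from any unit (triangles), with bars at the mean of the arrays. The tandem regions of rrp6Δ, at 0.26 and 0.43, lay below its convergent regions, at 0.56 and 0.71.

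The regions opposite tandem units had lower ratios than those opposite convergent units in most mutants. The difference, tandem minus convergent, was -0.29 ± 0.014 (SD, n = 2 arrays) in rrp6Δ, -0.19 ± 0.0029 in mtl1-17, -0.12 ± 0.013 in red1Δ and -0.12 ± 0.00060 in cid14Δ. It was -0.06 ± 0.037 in pab2Δ, and near 0 in iss10Δ and rmn1Δ. These spreads between 2 arrays are much smaller than the differences in rrp6Δ, mtl1-17, red1Δ and cid14Δ, but 2 arrays allow no exact test, and none was run. Antisense probes just upstream of unit starts, within 600 bp, had a higher mean than the tandem regions in rrp6Δ (0.86 ± 0.037), red1Δ (0.67 ± 0.017), pab2Δ (0.50 ± 0.045) and mtl1-17 (0.38 ± 0.018). At 4126 probes more than 1000 bp from any unit, outside the first 3000 probe numbers, the mean was 0.49 ± 0.023 in rrp6Δ, above that of its tandem regions. It was 0.21 ± 0.062 in cid14Δ, 0.19 ± 0.065 in sen1Δ and 0.08 ± 0.059 in red1Δ. In pab2Δ it was -0.12 ± 0.0076 and in mtl1-17 -0.12 ± 0.015. Whether these probes report RNA of their own was not tested.

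Single regions were tested with limma in 1 fit over all 9749 features of the array, at an adjusted p (Benjamini-Hochberg) under 0.05. In rrp6Δ 355 of the 840 regions rose and 129 fell. Over all features 44.8% rose and 14% fell, against 42.3% and 15.4% of the regions, so that these regions were called in rrp6Δ about as often as the array as a whole. Of the regions that rose, 140 did so by at least 1 on the log2 scale, and the median of all rises was 0.85. The split depended on the centring. Without it the median of all features was 0.24 lower, and 260 regions rose and 247 fell. With normexp background correction and loess the counts were 267 and 168. Without array 1 the 129 falls became 44.

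In red1Δ 178 regions rose and 117 fell, 21.2% and 13.9% of them. The background over all features was 30.6% for rises and 12.1% for falls, so that rises were less frequent in the regions than on the array as a whole. The median rise was 0.86. The split was 136 against 203 with normexp and loess, 148 against 53 in the series table that the authors deposited, and 130 against 32 with the median over probes. Without array 1 the fit called 149 rises and 25 falls, and without array 2 it called 117 and 42.

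In pab2Δ, as in cid14Δ, more regions fell than rose. In pab2Δ 149 regions rose and 264 fell, 17.7% and 31.4%. Over all features 25.1% rose and 14.3% fell, so that falls were more than 2 times as frequent in the regions as on the array. The falls were shallow, with a median of -0.56, and 13 of them reached 1. Among convergent regions 26.2% fell. Normexp with loess gave 98 rises and 282 falls, but the median over the probes of a region turned the split, to 118 rises and 80 falls. Under that setting the median region and the median of all features were both -0.033. With ratios of 0 left out 143 regions rose and 271 fell. The part of probes set to 0 in the turned split was not tested. The falls dropped to 88 without array 1 and to 69 without array 2, and the rises to 100 and 84.

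In mtl1-17 135 regions rose and 71 fell, against a background of 22.8% and 5.28% of all features (16.1% and 8.45% of the regions). Without centring the split was 105 against 102. Without array 1 it was 34 against 14, and without array 2 it was 59 against 21. In cid14Δ 85 rose and 116 fell, against a background of 14.4% and 7.28% (10.1% and 13.8% of the regions). Without array 1 the counts were 40 and 34, and without array 2 they were 53 and 23, so that the split turned. It also turned with the median over probes, to 54 and 24. Under that setting the median region and the median of all features were both 0.018 in cid14Δ. With ratios of 0 left out 74 regions of cid14Δ rose and 156 fell. Rises of at least 1 were rare in both, 11 in mtl1-17 and 18 in cid14Δ.

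Few regions were called in the other 4 mutants. By limma the counts were 4 rises and 1 fall in iss10Δ (background 1.32% and 0.185%, with 129 regions at an unadjusted p under 0.05), and 7 and 1 in rmn1Δ (1.55% and 0.174%, with 80 at that p). They were 23 and 12 in mmi1Δ mei4-P572 (3.88% and 2.12%) and 28 and 16 in sen1Δ (5.33% and 2.84%). Without centring the rises and falls were 16 and 25 in sen1Δ, 19 and 17 in mmi1Δ mei4-P572 and 4 and 0 in rmn1Δ, and with normexp and loess they were 22 and 7, 17 and 3, and 4 and 0. Leaving out either array of sen1Δ left 14 or 9 rises and 7 or 6 falls, and in iss10Δ it gave 8 or 3 rises and 10 or 0 falls. The regions of both iss10Δ arrays correlated at 0.18, against 0.91 to 0.93 between the arrays of rrp6Δ, red1Δ and pab2Δ, 0.80 for mtl1-17, 0.71 for cid14Δ and 0.62 for sen1Δ (Pearson, 840 regions, a description).

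**Figure D2:**
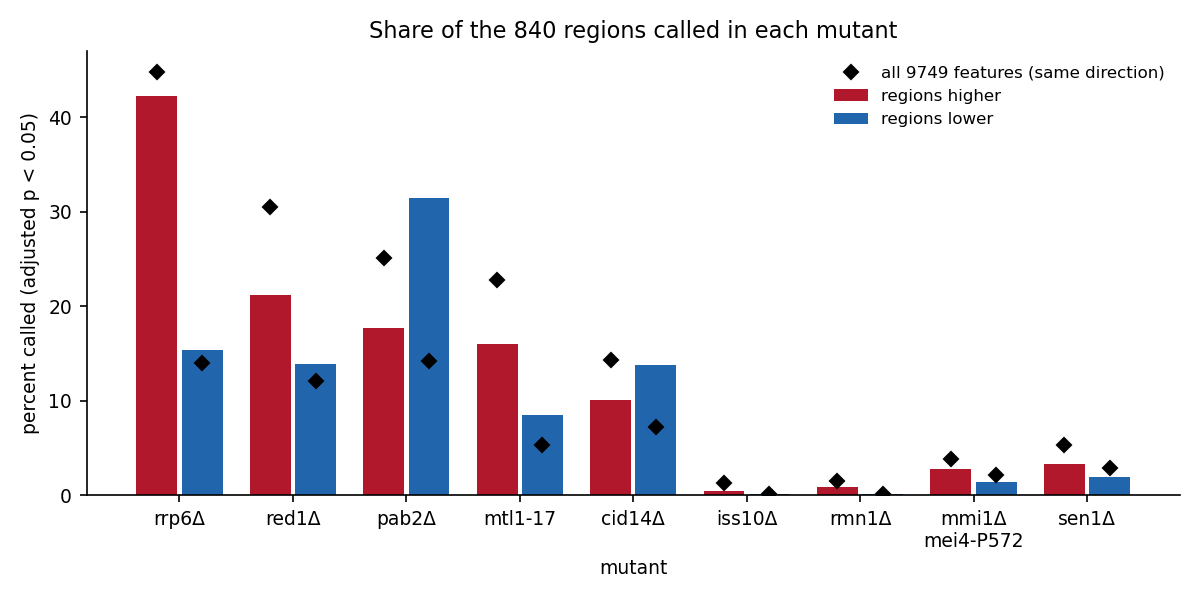
Percent of the 840 regions called higher (red bars) and lower (blue bars) at an adjusted p under 0.05 in each mutant, with diamonds at the percent of all 9749 features called in the same direction. In red1Δ 21.2% of the regions rose against 30.6% of all features, and in pab2Δ 31.4% fell against 14.3%.

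The ratio of the antisense strand depended on the distance to the start of the downstream unit. In the gap between the units, 200 to 320 bp upstream of that start, the mean was 1.18 and 1.08 on the arrays of rrp6Δ. In red1Δ it was 1.07 and 1.03. Values of 0.81 and 0.85 were measured in pab2Δ, and 0.63 on both arrays of mtl1-17. All 8 arrays of these 4 mutants were high there, and those of cid14Δ (0.05 and -0.04) were not. The single array of rmn1Δ had 0.32 there, iss10Δ had 0.09 and 0.13, and sen1Δ had -0.03 and -0.10. Immediately at the start, 40 to 160 bp away, the means were lower, with 0.71 on both arrays of rrp6Δ and 0.41 and 0.49 in red1Δ.

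Inside the regions the ratio was lower, and it fell off with distance. At 360 to 480 bp the mean was 0.62 and 0.64 in rrp6Δ, 0.50 and 0.55 in red1Δ, and 0.28 and 0.32 in pab2Δ. At 840 to 1120 bp it was 0.16 and 0.39 in rrp6Δ, 0.03 and 0.17 in red1Δ, and -0.09 and -0.08 in pab2Δ. At 1640 to 2400 bp it was 0.22 and 0.41 in rrp6Δ, -0.06 and 0.07 in red1Δ, and -0.12 and -0.17 in pab2Δ. After centring, the decline thus ended near or below 0 in red1Δ and pab2Δ and well above 0 in rrp6Δ. Before centring the mean of all sense units was -0.20 and -0.28 on the arrays of rrp6Δ, so the level at which its decline ended depends on the centring. The control signal of the probes differed little over these distances, between 5.83 at 360 to 480 bp and 5.62 at 1640 to 2400 bp on the log2 scale.

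**Figure D3:**
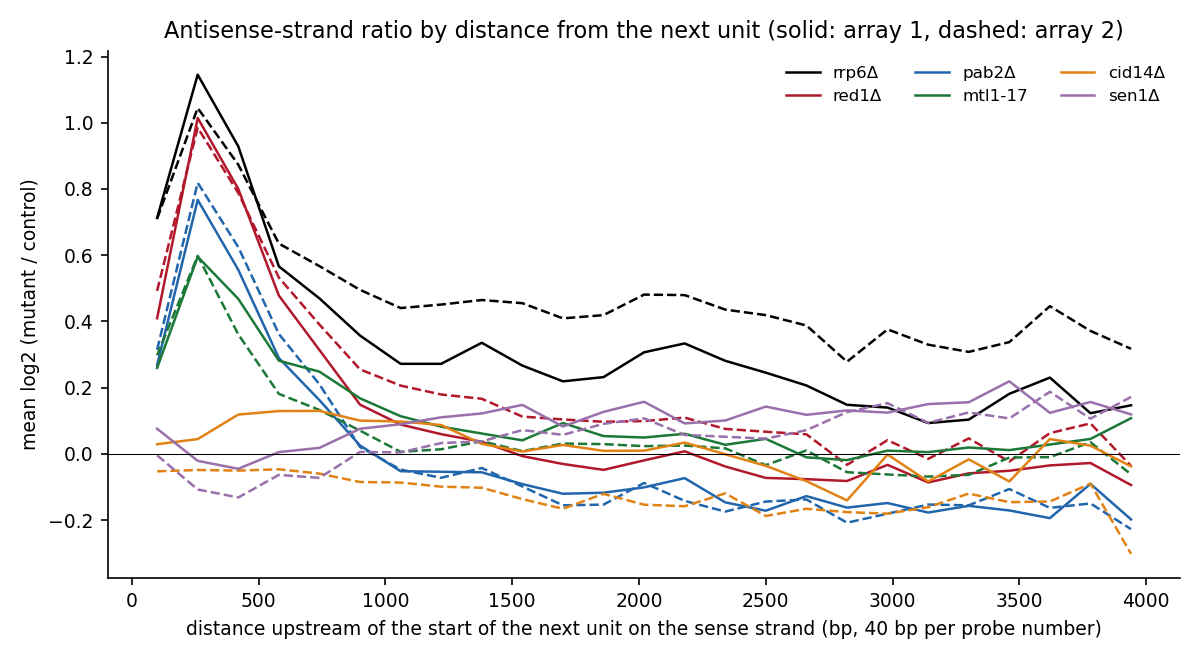
Mean log2 ratio of mutant over control on the antisense strand (y axis) by distance upstream of the start of the next unit (x axis, bp), gap and region probes together, for 6 mutants with a line for each array. The arrays of rrp6Δ, red1Δ, pab2Δ and mtl1-17 peaked at about 260 bp, and those of cid14Δ and sen1Δ did not.

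On average the same decline was seen within regions. Of the 840, 433 held at least 3 probes within 800 bp of the downstream start (near part) and at least 3 beyond it (far part). The near part exceeded the far part by 0.27 ± 0.013 (SD, n = 2 arrays) in red1Δ. The excess was 0.22 ± 0.036 in pab2Δ, 0.15 ± 0.012 in rrp6Δ and 0.14 ± 0.057 in mtl1-17. It was above 0 on both arrays of each of these mutants, and centring cannot change it, because both parts lie on 1 array. In iss10Δ it was 0.10 ± 0.016, in rmn1Δ 0.09 on its array, and in cid14Δ 0.06 ± 0.048. In sen1Δ the sign was opposite, with -0.10 ± 0.0020, and in mmi1Δ mei4-P572 the difference was -0.01. In red1Δ the near part was above the far part in 272 of the 433 regions, and in pab2Δ in 262. The count was 248 in mtl1-17, 230 in rrp6Δ (53.1%) and 176 in sen1Δ. The mean control signal of both parts was 5.70 on the log2 scale, and the control channel had 36.8% of near and 34.2% of far probes well above background. With normexp and loess the excess was smaller but had the same sign in these mutants, with 0.16 in red1Δ, 0.13 in pab2Δ, 0.11 in rrp6Δ, 0.10 in mtl1-17 and -0.05 in sen1Δ.

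Near and far parts were also called apart, in a limma fit in which they replaced the whole regions (10182 features). In red1Δ 33.3% of the near parts and 21% of the far parts rose (144 and 91 of the 433), against 30.4% of all features in that fit. In pab2Δ the shares were 25.2% and 17.8% (109 and 77, background 24.9%), and in mtl1-17 23.6% and 14.5% (102 and 63, background 22.5%). The near parts of these mutants thus rose about as often as the array as a whole, and the far parts less often, although the difference between the counts was not tested. In rrp6Δ the shares were 40.2% and 39.3% (174 and 170, background 44.4%). Falls were called in pab2Δ in 21.9% of the near and 30.9% of the far parts (95 and 134), against 14.3% of all features. In 8 regions of pab2Δ the near part rose while the far part fell, and the same was true of 4 regions in red1Δ, 3 in rrp6Δ and 1 in mtl1-17. Both parts rose in 109 regions in rrp6Δ and in 65 in red1Δ.

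**Figure D4:**
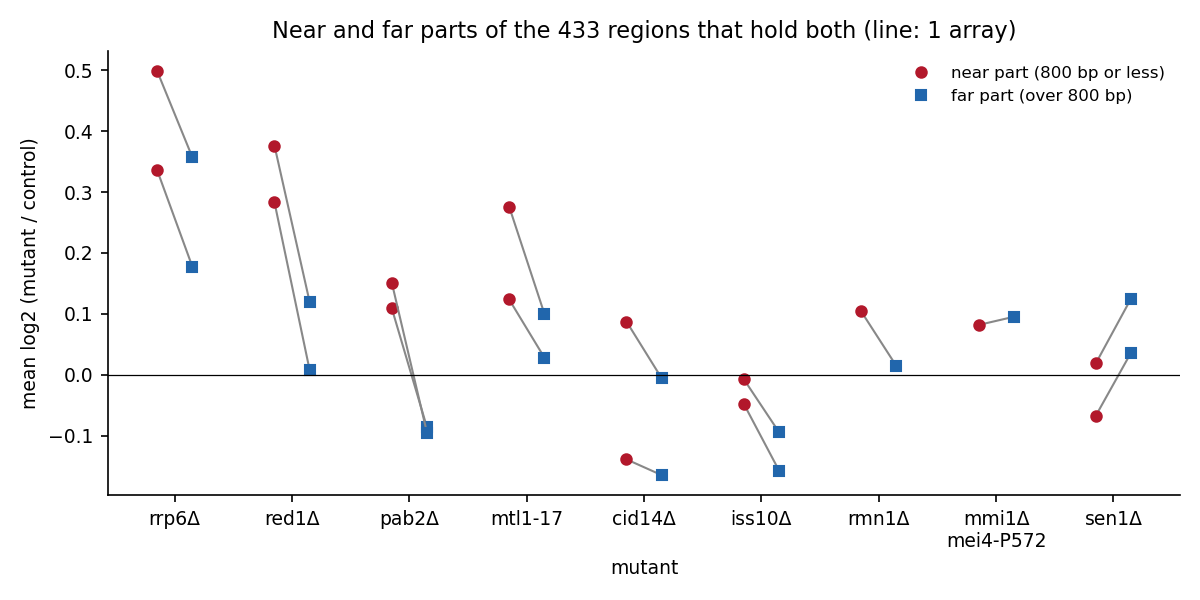
Mean log2 ratio of mutant over control (y axis) of the near parts (circles) and far parts (squares) of 433 regions, by mutant (x axis), with a line joining the parts on each array. In red1Δ the near parts were at 0.28 and 0.38 and the far parts at 0.01 and 0.12, and in sen1Δ the lines ran the other way.

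Regions with a short gap to the downstream unit had higher ratios in red1Δ. The mean was 0.17 ± 0.066 (SD, n = 2 arrays) for the 343 regions with a gap of at most 10 numbers, 0.07 ± 0.087 for the 268 with 11 to 20, and -0.01 ± 0.066 for the 229 with more. In pab2Δ the same classes had 0.01 ± 0.025, -0.08 ± 0.0021 and -0.16 ± 0.011. In rrp6Δ they had 0.34 ± 0.11, 0.30 ± 0.12 and 0.39 ± 0.13, with 0.27, 0.21 and 0.29 on array 1 and 0.42, 0.39 and 0.48 on array 2. The order of the classes was the same on both arrays in each of these 3 mutants, and the shift between arrays, which all classes share, makes up most of these SDs in red1Δ and rrp6Δ. The classes were not tested against each other. Falls were called in 8.16% of the short-gap regions of red1Δ and in 19.0% and 16.6% of the other classes.

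In rrp6Δ, pab2Δ and red1Δ the ratio was lowest opposite the brightest sense units. In rrp6Δ the mean was 0.52 ± 0.091 in the 280 regions opposite the dimmest units, 0.42 ± 0.12 in the middle 280, and 0.09 ± 0.15 opposite the brightest. In pab2Δ the dimmest and middle classes had 0.00 ± 0.029 and 0.00 ± 0.011, and the brightest had -0.21 ± 0.0033, with 42.5% of its regions lower. In red1Δ the values were 0.14 ± 0.078, 0.14 ± 0.076 and -0.01 ± 0.065. From dim to bright the means were successively lower in cid14Δ (0.00, -0.03 and -0.10) and iss10Δ (-0.01, -0.08 and -0.19). This held on both arrays of iss10Δ, but array 1 of cid14Δ had 0.05, 0.06 and 0.01. The order was not seen in the means of mtl1-17 (-0.01, 0.10 and 0.06), mmi1Δ mei4-P572 (0.05, 0.08 and 0.10) or sen1Δ (0.05, 0.07 and 0.10). In these means the dimmest class was the lowest. The brightest class was the lowest on array 2 of mtl1-17 (-0.01, 0.08 and -0.03) and on array 1 of sen1Δ (0.11, 0.12 and 0.10). The array of rmn1Δ had 0.08, 0.07 and -0.01. The antisense control signals of the 3 classes were close, 5.81, 5.65 and 5.74 on the log2 scale. The part of signal from the bright strand in these ratios was not tested. Across the 840 regions the antisense ratio and the ratio of the sense unit had a Pearson correlation of 0.17 in rrp6Δ, 0.22 in red1Δ and 0.27 in pab2Δ. Of the 355 regions that rose in rrp6Δ, the sense unit rose in 100 and fell in 71, and over all 840 regions it rose in 211 and fell in 190.

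Calls were compared between mutants with different control strains, beside the same shares over all 9749 features. In rrp6Δ and red1Δ together 155 regions rose, 43.7% of those of rrp6Δ and 87.1% of those of red1Δ. Over all features these shares were 55.5% and 81.4%. Rises in red1Δ and pab2Δ had 116 regions in common, 65.2% and 77.9% of the lists, against 66.8% and 81.2% over all features. The overlap of rises in the regions was thus close to or below that on the whole array, except for the share of the red1Δ list found in rrp6Δ, which was higher. Falls in red1Δ and pab2Δ had 94 in common, 80.3% of the falls of red1Δ and 35.6% of those of pab2Δ, against 48.0% and 40.9%. Falls were also more frequent in pab2Δ in the regions than over all features. Opposite calls were few between red1Δ and pab2Δ, 1 in each direction, and 34 regions (4.05%, against 2.44% of all features) rose in rrp6Δ and fell in pab2Δ. The ratios of red1Δ and pab2Δ had a Pearson correlation of 0.83 over the regions, and those of rrp6Δ and red1Δ 0.63, on probes and dye orientation that all arrays share. In all of rrp6Δ, red1Δ, pab2Δ and mtl1-17, 66 regions rose (7.86%, against 13.3% of all features), and their median gap was 480 bp, the same as that of all 840. In rrp6Δ alone of the 9 mutants 145 rose (17.3%, against 12.1%). In at least 1 mutant 434 regions rose and 382 fell, 114 did both, and 138 were never called. For these last counts no share over all features is given, so they do not set the regions apart from the array.

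Differences between mutants were tested in the same fit. Between red1Δ and rrp6Δ 194 regions differed (23.1%, against 26% of all features), of which 167 were lower (background 19.6%) and 27 higher (6.38%) in red1Δ. Between cid14Δ and rrp6Δ 350 differed (41.7%, against 39.5%), of which 300 were lower (background 32.2%) and 50 higher (7.33%) in cid14Δ. The red1Δ count was 121 without array 2 of rrp6Δ and 84 without array 1 of red1Δ. Between pab2Δ and red1Δ 29 regions differed (3.45%, against 5.57%), 12 higher (background 2.02%) and 17 lower (3.55%) in pab2Δ, and this fell to 4 to 8 when any of the 4 arrays was left out. Between mtl1-17 and red1Δ 65 differed (7.74%, against 9.17%), 57 of them lower (background 7.23%) and 8 higher (1.94%) in mtl1-17, and 19 to 31 were called on leaving out an array. Here temperature and control strain differ as well and cannot be told apart from the mutation. The control strain also differed between the mutants of each other contrast, and its part cannot be told apart there either. The slide shared by rrp6Δ, red1Δ and pab2Δ gave a mean difference of -0.29 for red1Δ minus rrp6Δ, against -0.25 over all arrays, and of -0.20 for pab2Δ minus red1Δ, against -0.16.

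Regions are named below by the probe numbers of their units. They were taken by a rule from the called regions with at least 5 probes and at least 1 in 2 of the probes above background, and the largest ratios were chosen, so their sizes are a description. In many of them the control signal was close to background in other mutants. The region opposite unit 11870-11882, with 6 probes, had the highest rise of those in rrp6Δ, 5.40 and 5.03 on the arrays, a 37.2-fold rise (log2 5.22 ± 0.21 SE, adjusted p = 3.2e-09, limma). In red1Δ the arrays gave 0.51 and 1.02, and in pab2Δ 0.77 and 0.64, both called. In mtl1-17 they gave -0.71 and -0.39. The rrp6Δ arrays thus stood far above all others, and red1Δ minus rrp6Δ was -4.45 ± 0.30 (SE, adjusted p = 3.1e-06, limma) and cid14Δ minus rrp6Δ -5.55 ± 0.30 (adjusted p = 2.2e-07). The ratio of its sense unit was 0.66 in rrp6Δ and -0.65 in red1Δ. Opposite unit 756-766 (5 probes) the pattern was similar, with 4.45 and 4.11 in rrp6Δ and 0.60 and 0.94 in red1Δ.

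The region opposite unit 22960-22994, with 17 probes, rose in 7 mutants, the most for any region. Its ratios were 4.11 and 3.73 in red1Δ, 3.38 and 3.61 in rrp6Δ and 3.1 in mmi1Δ mei4-P572. They were 2.69 and 2.32 in mtl1-17, 2.21 and 2.60 in iss10Δ and 2.30 and 2.20 in pab2Δ. In cid14Δ they were 0.98 and 0.87. The arrays of these 7 mutants all lay above 0, and in sen1Δ it fell, to -0.77 and -0.46. The adjusted p was 5.3e-09 in red1Δ, 2e-06 in iss10Δ, 5.6e-06 in mmi1Δ mei4-P572 and 0.026 in sen1Δ (limma). The sense unit had -1.20 in red1Δ and -1.73 in mmi1Δ mei4-P572. Its control signal was well above background at 2 of the 17 probes on array 1 of red1Δ and at 15 on array 1 of rrp6Δ. The antisense probes of this region lie just upstream of unit 23005-23025, on the strand of that unit. The sense ratio of unit 23005-23025 was 4.13 in rrp6Δ, 4.01 in red1Δ, 3.28 in mmi1Δ mei4-P572 and 2.08 in mtl1-17. It was 1.93 in pab2Δ, 1.49 in iss10Δ and 0.18 in cid14Δ. Whether these probes and that unit report the same RNA was not tested. The region opposite unit 23005-23025 had 2.76 and 3.15 in rrp6Δ and 2.28 and 2.78 in red1Δ. In mtl1-17 it had 1.43 and 0.88, and in pab2Δ 2.69 and 2.87. Of its 10 probes 1 had a control signal well above background on each array of red1Δ and pab2Δ, and all 10 did on both arrays of mtl1-17.

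Other regions rose in the exosome mutant and in MTREC mutants together. Opposite unit 16688-16718 (15 probes) the ratios were 2.23 and 2.31 in rrp6Δ, 2.24 and 2.54 in red1Δ, 1.34 and 1.66 in mtl1-17 and 1.96 and 1.67 in pab2Δ. The arrays of rrp6Δ and red1Δ overlapped, and those of cid14Δ, at 0.41 and 0.36, were lower than any of these. The array of mmi1Δ mei4-P572 had 1.48. Of the 15 probes, 3 and 4 had a control signal well above background on the arrays of red1Δ, and 4 and 5 on those of pab2Δ. In rrp6Δ 9 and 5 did, and in mtl1-17 13 and 10. Opposite unit 115040-115054 (7 probes) the ratios were 2.03 and 1.54 in red1Δ and 2.00 and 1.67 in rrp6Δ. Its sense unit had 6.19 in rrp6Δ and 1.37 in red1Δ. Opposite unit 25297-25309 (6 probes) they were 1.73 and 1.83 in red1Δ, 1.31 and 1.62 in pab2Δ, 1.97 and 1.65 in rrp6Δ and 1.23 in rmn1Δ, and 0.36 and 0.25 in mtl1-17. The rise in rmn1Δ had an adjusted p of 0.014 (limma) from 1 array. Opposite unit 101981-101991 (5 probes) the ratios were 1.52 and 1.32 in red1Δ and 2.33 and 1.72 in rrp6Δ, with 0.15 and -0.42 in mtl1-17. The difference, mtl1-17 minus red1Δ, was -1.56 ± 0.42 (SE, adjusted p = 0.034, limma), and it was lost on leaving out any of the 4 arrays (adjusted p = 0.075 to 0.22).

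A few regions rose at least as far in pab2Δ or red1Δ as in rrp6Δ. Opposite unit 92194-92246 (26 probes) the ratios were 1.18 and 1.22 in pab2Δ, 1.30 and 1.16 in red1Δ and 0.61 and 1.05 in rrp6Δ, so that the rrp6Δ arrays lay below the others. Opposite unit 115917-115957 (15 probes) they were 1.16 and 1.45 in pab2Δ, 1.32 and 1.26 in red1Δ and 0.82 and 1.33 in rrp6Δ, which overlapped. The region opposite unit 69267-69351 (42 probes) rose in pab2Δ, with 0.79 and 0.72, and had -0.20 and -0.17 in red1Δ. In rrp6Δ it fell, with -0.74 and -0.33 (adjusted p = 0.0043, limma), and in sen1Δ with -0.39 and -0.57 (0.048). The arrays of pab2Δ and red1Δ did not overlap, and pab2Δ minus red1Δ was 0.94 ± 0.19 (SE, adjusted p = 0.014, limma). This call was lost on leaving out any of the 4 arrays of pab2Δ and red1Δ.

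In cid14Δ the highest rise of a named region was that opposite unit 87792-87836 (20 probes), at 1.77 and 1.63, where red1Δ had -0.94 and -0.92. Near it on the same strand, the region opposite unit 87676-87686 (5 probes) had 1.50 and 1.32 in cid14Δ and -0.76 and -0.53 in mtl1-17. Opposite unit 142446-142470 (12 probes) cid14Δ had 1.13 and 1.44 and rrp6Δ -1.13 and -1.33. These 4 arrays stood apart by sign, and cid14Δ minus rrp6Δ was 2.51 ± 0.27 (SE, adjusted p = 2.2e-05, limma). Its sense unit had 1.25 in cid14Δ and -0.29 in rrp6Δ. In mmi1Δ mei4-P572 the region opposite unit 30815-30839 (12 probes) rose to 1.99, with 1.79 and 2.30 in rrp6Δ and -0.90 and -1.12 in sen1Δ.

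**Figure D5:**
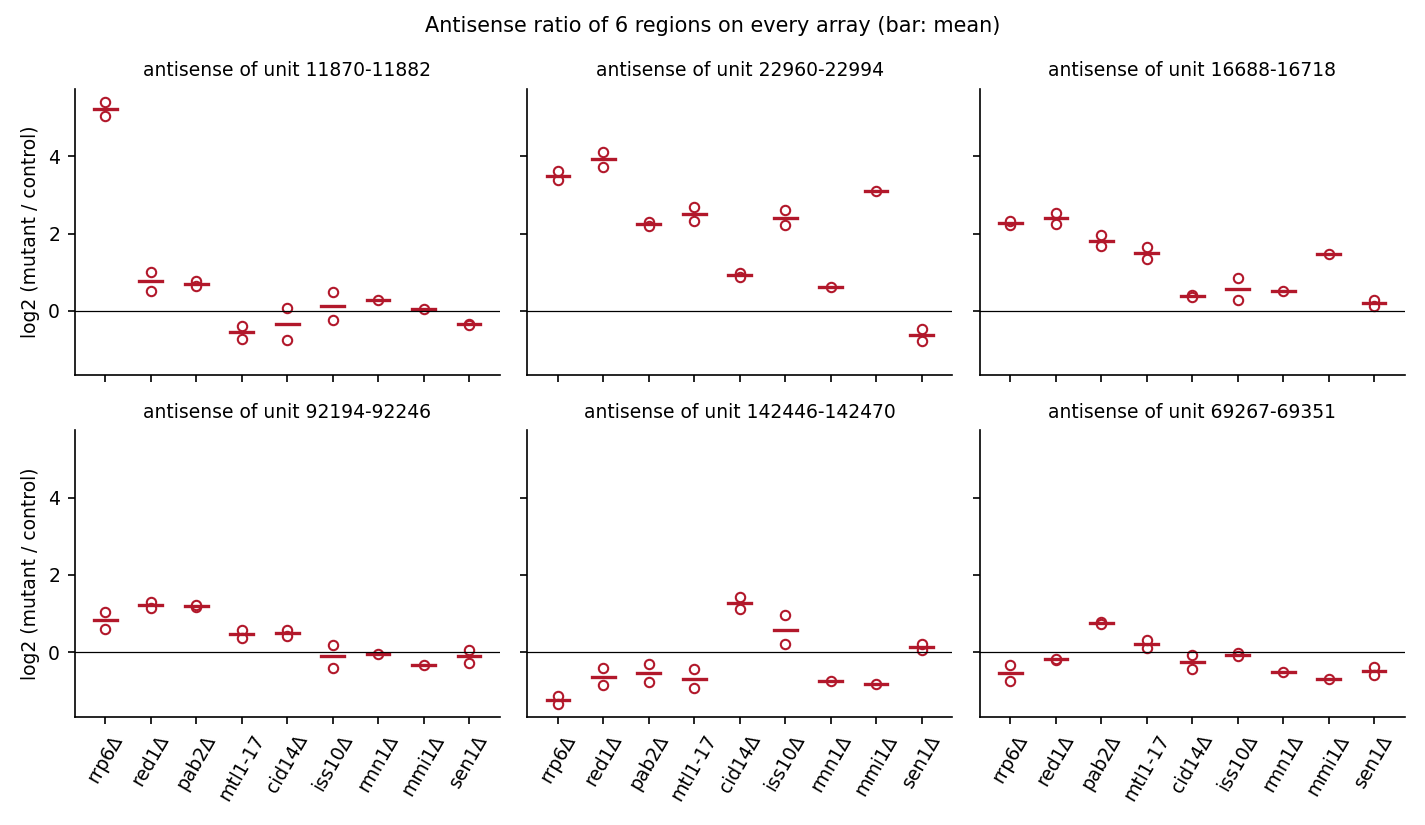
Log2 ratio of mutant over control (y axis) on every array (circles) with the mean (bars), by mutant (x axis), for 6 regions. The region opposite unit 11870-11882 was highest in rrp6Δ, at 5.40 and 5.03, and that opposite 22960-22994 was high in 6 mutants, at 2.20 or more.

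Among the falls named by the same rule, the ratios opposite unit 54375-54417 (21 probes) were -1.69 and -1.0 in rrp6Δ and -1.20 and -1.04 in red1Δ, while the sense unit had 1.06 in rrp6Δ and 1.16 in red1Δ. Opposite unit 32164-32174 (5 probes) they were -0.69 and -1.91 in rrp6Δ, which differed widely between arrays, and -1.40 and -1.55 in red1Δ. The fall in rrp6Δ had an adjusted p of 0.00081 with both arrays and 0.073 without array 2 (limma). Opposite unit 39381-39391 (5 probes) they were -1.36 and -1.05 in red1Δ and -1.22 and -1.63 in pab2Δ, and 0.52 and 0.44 in rrp6Δ, so that the direction differed. Smaller falls were those of the region opposite unit 4034-4048 (7 probes), which had -1.07 and -0.81 in pab2Δ, and that opposite unit 6230-6242 (6 probes) had -0.98 and -1.01 in red1Δ but 0.90 and 1.31 in rrp6Δ. The red1Δ fall of the last had an adjusted p of 0.065 without either array.

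Opposite unit 130599-130633 (17 probes) the ratios were -1.14 and -0.73 in mtl1-17 and 0.99 and 0.76 in sen1Δ, and opposite unit 133069-133079 (5 probes) they were -1.08 and -0.86 and 0.36 and 1.63. These groups did not overlap, but the contrast was not tested. For the region opposite 130599-130633, the mtl1-17 call was lost without array 1 of mtl1-17 (adjusted p = 0.15, limma), and the sen1Δ call without either array of sen1Δ (0.30 and 0.087). For that opposite 133069-133079, the mtl1-17 call was lost without either array of mtl1-17 (0.21 and 0.098), and the sen1Δ call without array 2 of sen1Δ (0.56). In cid14Δ the region opposite unit 72681-72691 (5 probes) had -1.01 and -0.79. Its call was lost without array 1 (adjusted p = 0.091, limma), and in pab2Δ it had -1.19 and -1.58. On the array of rmn1Δ the region opposite unit 633-669 (18 probes) had -0.88, and on that of mmi1Δ mei4-P572 the region opposite unit 116277-116309 (16 probes) had -1.29, where rrp6Δ had -0.76 and -0.81 and red1Δ had 0.26 and 0.22. Between the latter the difference, 1.02 ± 0.16 (SE), had an adjusted p of 0.00096 (limma). No region met the rule in iss10Δ, and none fell by it in sen1Δ.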

How the data were processed

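The authors scanned 16 two-colour Agilent tiling arrays (174063 tiling probes each) and deposited the Feature Extraction output (version 10.7.3.1, per the submitters' processing notes, and 10.7.1.1 in the header of 1 array). Deposited columns were the log10 ratio of Cy5 over Cy3, background-subtracted and lowess-normalized by the authors, the processed and median signals of both channels as linear intensity, and the p-value of the log ratio, which was used only to read the series table. The series table deposited by the authors holds log2 ratios with 0 where that p-value was over 0.05, and was used as an alternative. Log ratios were converted to log2, outlier probes left out, and probes averaged per region. Regions with at least 3 probes and 4 other kinds of feature (sense units, flanks 600 bp up- and downstream, units of the sparse part) made 9749 features, centred per array on the average sense unit. A single limma fit (3.58.1, in R 4.3.3) held 9 mutants as groups, with 7 residual and 5.66 prior degrees of freedom, and gave 2-sided p-values adjusted by Benjamini-Hochberg over all features. The number of arrays limits the precision.

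Probe numbers were taken as 40 bp apart. The lost runs of rmn1Δ and pab2Δ lay 1449.6 kb apart by that rule, and these genes lie 1449.0 kb apart in the RefSeq table of assembly ASM294v3. That assembly may not be the build of the arrays, so no coordinates are given. No probe sequences were used here.

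Named regions were called, had the same sign on all arrays of the mutant, at least 5 probes, and at least 1 in 2 probes well above background in both channels on every array of that mutant. The members, classes and this rule were chosen with earlier results of these data known. Up to 3 rises and 2 falls were named in rrp6Δ, red1Δ, pab2Δ and mtl1-17, up to 2 and 1 in the other mutants, and 1 in each direction for each contrast. Steps were tested on simulated data. The alternatives were normexp (offset 50) with loess, no centring, the median over probes, probes well above background in either channel on at least 2 arrays (149953 probes), the series table, slide as a fixed or random term, a replicate block, units from the control signals of the other mutants, and each array left out. Leaving out probes with a ratio of 0, and near or far parts alone, were added after seeing the data. Replicate numbers were not taken to pair the arrays.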

Additional observations from a re-analysis of the deposited data

Results flagged for a closer look

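Differences between mutants in single regions, tested as a contrast in the fit over all features (limma), drew attention because both mutants were compared with their own control strain. These control strains differed within each contrast, and their part cannot be told apart from the mutations. The region opposite unit 11870-11882 differed by -4.45 between red1Δ and rrp6Δ and by -5.55 between cid14Δ and rrp6Δ, and the region opposite unit 116277-116309 by 1.02 between red1Δ and rrp6Δ. Between cid14Δ and rrp6Δ the region opposite unit 142446-142470 differed by 2.51. The region opposite unit 69267-69351 differed by 0.937 between pab2Δ and red1Δ, and that opposite unit 101981-101991 by -1.56 between mtl1-17 and red1Δ. The calls of these last 2 regions were lost when any array of either mutant was left out. These are the regions with the highest and lowest differences among those that could be named, so their sizes are a description.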

How the results depend on the processing

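Of 278 counts of regions compared with an alternative, 184 stayed within 1.5 times and 94 did not. Of 296 values of named regions, 259 kept their call, 37 lost it and 0 changed sign.

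With only the near probes, rises and falls were 206 and 70 in rrp6Δ, 53 and 61 in cid14Δ, 9 and 0 in iss10Δ and 17 and 30 in sen1Δ, falls were 46 in red1Δ, 99 in pab2Δ, 37 in mtl1-17 and 2 in rmn1Δ, and rises were 10 in mmi1Δ mei4-P572. These fits hold fewer probes and regions. With only the far probes rises were 2 in iss10Δ and 3 in rmn1Δ, and falls were 9 in sen1Δ. Without centring falls were 247 in rrp6Δ, and rises and falls were 4 and 0 in rmn1Δ and 16 and 25 in sen1Δ. In the series table falls were 75 in rrp6Δ, 53 in red1Δ and 40 in mtl1-17, and rises and falls were 43 and 57 in cid14Δ, 2 and 0 in iss10Δ, 3 and 0 in rmn1Δ and 13 and 9 in sen1Δ. With normexp and loess falls were 203 in red1Δ, 3 in mmi1Δ mei4-P572 and 7 in sen1Δ, rises were 98 in pab2Δ, rises and falls were 38 and 45 in cid14Δ and 4 and 0 in rmn1Δ, and 17 regions differed between pab2Δ and red1Δ and 22 between mtl1-17 and red1Δ. With the median over probes falls were 32 in red1Δ and 80 in pab2Δ, rises were 4 in rmn1Δ, and rises and falls were 88 and 41 in mtl1-17, 54 and 24 in cid14Δ, 1 and 0 in iss10Δ and 9 and 9 in sen1Δ. With ratios of 0 left out falls were 202 in red1Δ, 16 in iss10Δ, 0 in rmn1Δ and 19 in mmi1Δ mei4-P572, and with only probes well above background falls were 3 in iss10Δ. The slide as a random block gave 58 regions between pab2Δ and red1Δ, and as a fixed term 70. The causes were not tested.

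Leaving out 1 array gave 44 to 119 falls in rrp6Δ, 117 to 149 rises and 25 to 42 falls in red1Δ, 84 to 100 and 69 to 88 in pab2Δ, 34 to 59 and 14 to 21 in mtl1-17, 40 to 53 and 23 to 34 in cid14Δ, 3 to 8 and 0 to 10 in iss10Δ, and 9 to 14 and 6 to 7 in sen1Δ. It gave 84 to 148 regions for red1Δ minus rrp6Δ, 4 to 8 for pab2Δ minus red1Δ and 19 to 31 for mtl1-17 minus red1Δ. The lone array left was assumed to vary like the other groups.

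With the replicate number as a block, rrp6Δ had 355 rises and 130 falls, and rmn1Δ 4 and 0. Of 21 correlations of the deviations of same-numbered arrays 5 were over 0.1 (median 0.021, range -0.24 to 0.33). These values do not decide whether the numbers pair the arrays. As a random block the slide had a correlation of 0.36. The low share of antisense probes above background limits what these ratios can show.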
